A study of Mus musculus with 2 samples.

Results

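The 6 microRNAs described here are miR-23b-3p, miR-27b-3p, miR-29b-3p, miR-30a-5p, miR-30a-3p and miR-30b-5p in mouse striatum. They were taken by identifier, MIMAT0000125 to MIMAT0000130, and are 6 of the 3200 rows of the deposited table. All 6 had a value in both arrays, as did 1369 rows in all, called the shared rows. Striatum of R6/2 mice was compared with striatum of wild-type mice, with 1 array per genotype and both samples from 10-week-old males. The R6/2 line carries a transgene of exon 1 of human huntingtin with a long CAG repeat, driven by part of the huntingtin promoter, and is a model of Huntington's disease. The number of animals in each sample, and whether any were pooled, is not stated in the labels. With 1 array per genotype no difference below has a replicate check, and no test was run.

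MicroRNAs are short RNAs cut from hairpin precursors that lower the translation and stability of messenger RNAs, which they recognise mainly through the seed, bases 2 to 8 from the 5′ end. Either arm of a hairpin can yield a mature microRNA, the 5p arm or the 3p arm. The miR-23 and miR-29 families have been reported as richer in astrocytes than in neurons in rodent brain cultures, and the miR-30 family is found in many tissues.

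The mature sequences are shown because the seed sets which targets a microRNA can bind, and because close relatives differ from them by few bases. RefSeq sequences (build GRCm38.p6) matched 4 of the 6 microRNAs by name, and the others, miR-23b-3p and miR-30b-5p, are named only. Each is written 5′ to 3′ with its seed in capitals.
miR-27b-3p: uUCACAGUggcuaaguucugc
miR-29b-3p: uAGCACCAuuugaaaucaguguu
miR-30a-5p: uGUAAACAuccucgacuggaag
miR-30a-3p: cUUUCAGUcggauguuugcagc
The 4 sequences have 4 different seeds, so the 2 arms of miR-30a do not share one. By family, miR-30b-5p belongs with miR-30a-5p.

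Each of the 4 has a close relative in the RefSeq table with the same seed. These relatives are shown because a probe for one may also capture the other, and the chip's probe sequences were not used here.
miR-27a-3p: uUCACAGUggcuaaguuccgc
miR-29c-3p: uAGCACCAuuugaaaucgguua
miR-30e-5p: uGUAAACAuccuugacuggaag
miR-30e-3p: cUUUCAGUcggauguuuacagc
Counting from 1 at the 5′ end, with the base of the measured microRNA first, miR-27b-3p differs from miR-27a-3p by U19C alone. MiR-30a-5p differs from miR-30e-5p by C13U alone, and miR-30a-3p from miR-30e-3p by G18A alone. MiR-29b-3p differs from miR-29c-3p by A18G, G21U and U22A over the 22 positions both have. How far the relatives contribute to the measured signal was not tested. None of them is among the 45 rows that could be named, as described below, so their own rows were not analysed here.

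The hairpins of miR-23b and miR-27b are neighbours on chromosome 13 (coordinates in GRCm38.p6), at chr13:63300484-63300557 and chr13:63300712-63300784, with starts 228 bases apart. The hairpin of miR-24-1, the third of that cluster, starts 724 bases from that of miR-23b. MiR-29b-3p comes from 2 hairpins, Mir29b-1 at chr6:31063023-31063093 and Mir29b-2 at chr1:195037040-195037120, and the mature sequence is identical in both. A single row therefore cannot say which of the 2 genes gave the signal. Both arms of miR-30a come from 1 hairpin at chr1:23272269-23272339, and the hairpin of miR-30b lies at chr15:68337415-68337510.

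The names rest on the identifiers. The table carries no names, and its identifiers rise by 1 at all 3199 steps from row to row, which a list of mouse microRNAs alone would not do. Names were therefore used only for the first 45 rows, MIMAT0000121 to MIMAT0000165, a stretch in which the miRBase numbers are all mouse. Levels of microRNAs with a known brain pattern were used as a check. MiR-124-3p, the main neuronal microRNA, was the 4th brightest row in both arrays, at 26311.6 intensity units in R6/2 and 31943.2 in wild-type. MiR-9-5p, also abundant in brain, was 13th brightest in R6/2 and 10th in wild-type, and miR-125b-5p was 11th in both. MiR-1a-3p, a muscle microRNA, gave 100.3 units in R6/2 and 133.7 in wild-type. MiR-133a-3p, also of muscle, gave 52.1 units in R6/2 and 58.6 in wild-type. MiR-141-3p of epithelium gave 17.1 in R6/2 and 20.2 in wild-type. Red-cell miR-144-3p was near the lower end of the table, at 8.2 in R6/2 and 8.1 in wild-type. The 3 brain rows were thus among the 13 brightest of each array. Of the 4 rows of other tissues, both muscle rows lay above each array's median intensity of 25, with miR-1a-3p in the brightest 25% of shared rows, and the other 2 lay below it. These levels come from different probes, so they are a rough check of the names only. Which cells held the 6 microRNAs was not measured. In whole striatum, fewer cells of a type and less RNA per cell cannot be told apart.

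All 6 microRNAs were bright and, as deposited, nearly equal between the genotypes. Their intensities lay between 348.6 and 13872.5 in R6/2 striatum and between 318.4 and 13422.6 in wild-type striatum, against a median of 25 over the filled rows of each array. As deposited, the ratios of R6/2 over wild-type ran from 1.02-fold lower for miR-27b-3p to 1.11-fold higher for miR-30b-5p. At least 1.5-fold higher were 0 of the 6, against 21.5% of all 1369 rows and 7.29% of the brightest 25%, to which all 6 belonged. At least 1.5-fold lower were also 0, against 1.53% of all rows and 2.92% of the brightest 25%. A difference of less than 1.5-fold was also the rule among the brightest 25% of rows, at 89.8%, so this nearness is shared with most bright rows.

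**Figure D1:**
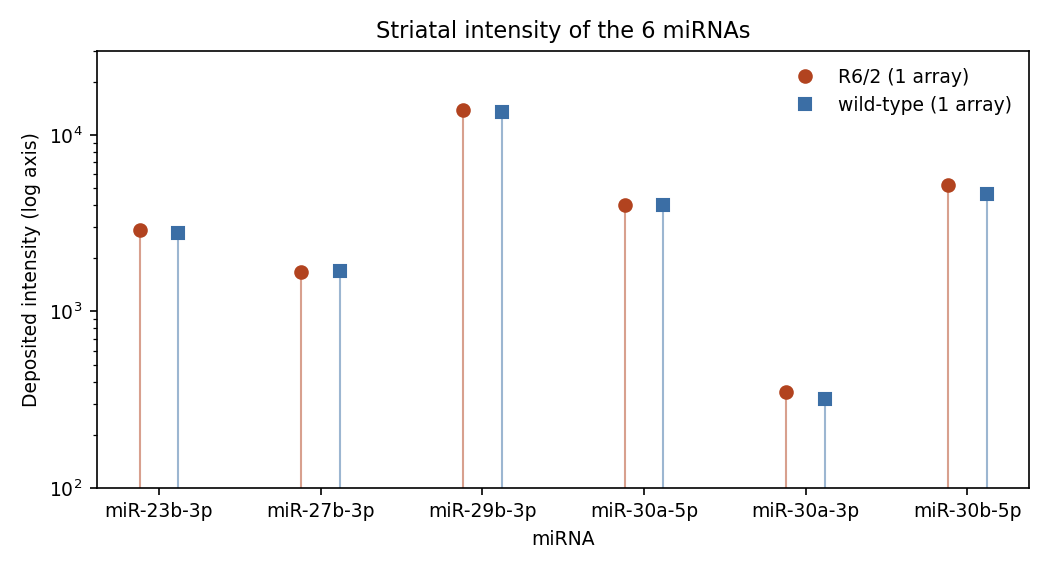
Deposited intensity on a log axis for each of the 6 microRNAs in R6/2 striatum (circles, left of each pair) and wild-type striatum (squares, right), 1 array each, with no error bars because there are no replicates. Each pair sits almost level, from miR-30a-3p at 348.6 in R6/2 and 318.4 in wild-type to miR-29b-3p at 13872.5 in R6/2 and 13422.6 in wild-type.

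MiR-23b-3p and miR-27b-3p come from neighbouring hairpins. MiR-23b-3p (MIMAT0000125) gave 2904.5 units in the R6/2 array against 2784.6 in the wild-type array, the 47th brightest row of the R6/2 array and the 42nd of the wild-type array. Its log2 ratio was 0.061, which is 1.04-fold higher in R6/2. MiR-27b-3p, known to repress the fat-cell regulator Pparg, was read at 1669.2 in R6/2 and 1698.1 in wild-type (MIMAT0000126). It was the one of the 6 with a lower deposited value in R6/2, by a log2 ratio of -0.025. The ratios of the 2 neighbours differed by 0.086 on the log2 scale. No replicate spread exists against which this difference could be set.

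MiR-29b-3p was the brightest of the 6 rows. MiR-29 microRNAs are known to repress collagens and DNA methyltransferases, and in mouse neurons pro-apoptotic genes of the BH3-only group. MiR-29b-3p (MIMAT0000127) gave 13872.5 units in the R6/2 array against 13422.6 in the wild-type array, and was the 9th brightest row in both arrays. Its log2 ratio was 0.048, which is 1.03-fold higher in R6/2. Brightness differs between probes for reasons other than the amount of RNA, so the order of rows within an array is no order of abundance.

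MiR-30a-5p, with the seed GUAAACA, is known from human cells to repress the autophagy gene beclin 1. It (MIMAT0000128) was read at 4021.5 units in R6/2, against 4008 in wild-type. Its log2 ratio of 0.0049 was the nearest to 0 of the 6. MiR-30b-5p (MIMAT0000130), of the same family, was read at 5177.3 in R6/2, against 4654.9 in wild-type. Its log2 ratio of 0.15 was the highest of the 6 and lay 0.15 above that of miR-30a-5p.

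Both arms of miR-30a were present. The 3p arm (MIMAT0000129) gave 348.6 units in the R6/2 array against 318.4 in the wild-type array, the 157th brightest row of the R6/2 array and the 153rd of the wild-type array. The 5p arm stood 31st in the R6/2 array and 29th in the wild-type array. Their probes differ, so the levels of the 2 arms are given side by side and not as a ratio of amounts. The 3p arm had a log2 ratio of 0.13 and the 5p arm one of 0.0049, a difference of 0.13 or 1.09-fold. A common scaling factor between the arrays cancels in this difference, but quantile normalization, which is no single factor, reduced it to 0.027.

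The same difference, 3p minus 5p, was computed for the other microRNAs with both arms among the 45 named rows, a set chosen after the values were seen. It was -0.054 for miR-9, 0.12 for miR-126a and -0.15 for miR-140. It was 0.93 for miR-142a, whose arms were dim, with the 3p arm at 39.2 in R6/2 and 22.6 in wild-type and the 5p arm at 40.2 in R6/2 and 44.2 in wild-type. As deposited, the ratios of the miR-30a arms were thus about as close to each other as those of miR-126a and miR-140.

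For 5 of the 6 the sign of these small ratios depended on how the 2 arrays were set to a common scale, while miR-27b-3p was below 0 under each of the scales tried. The 1369 shared rows had a median log2 ratio of 0.30, so most rows had a higher deposited value in R6/2. Each array had a median of 25 over its own filled rows, 1650 in R6/2 and 1376 in wild-type. Equal medians over unequal numbers of filled rows need not make the shared rows equal. Whether the 0.30 comes from this scale was not tested. Of the 6 microRNAs 5 were higher in R6/2 as deposited, against 84.3% of all shared rows and 77.8% of the brightest 25%. Relative to the median ratio all 6 were lower, against 50% of all shared rows and 70% of the brightest 25%. On that scale the log2 ratio was -0.24 for miR-23b-3p, -0.33 for miR-27b-3p, -0.26 for miR-29b-3p, -0.30 for miR-30a-5p, -0.17 for miR-30a-3p and -0.15 for miR-30b-5p. The lowest of these, that of miR-27b-3p, is a 1.26-fold difference. Relative to the median ratio, 0 of the 6 were at least 1.5-fold higher or lower, against 9.42% higher and 5.41% lower over all shared rows. In the brightest 25% these shares were 2.92% higher and 8.45% lower.

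**Figure D2:**
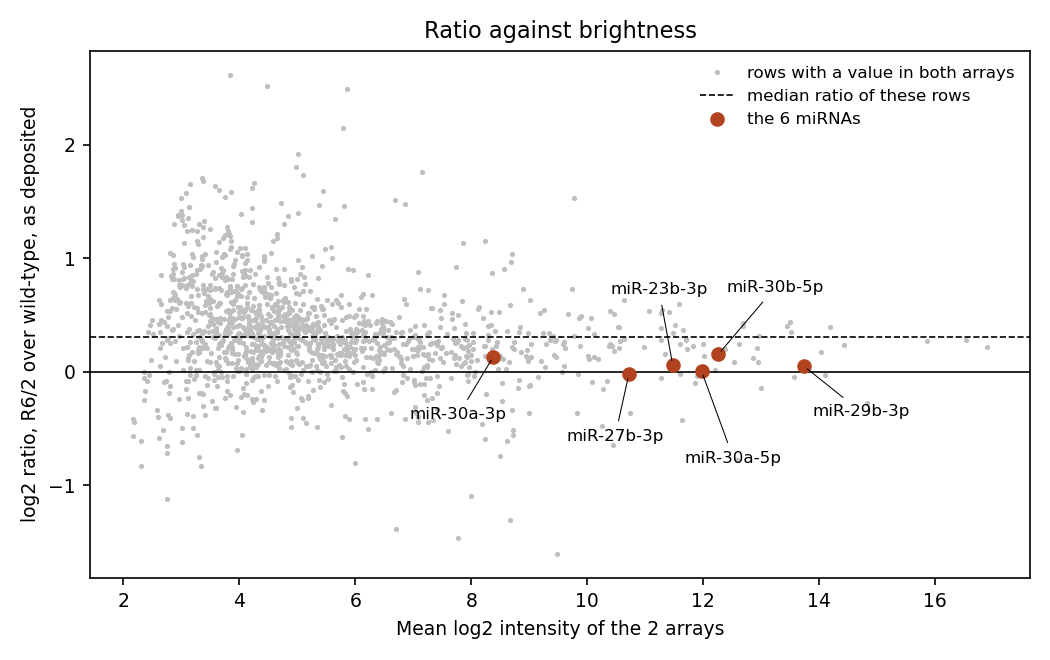
log2 ratio of R6/2 over wild-type against the mean log2 intensity of the 2 arrays for the 1369 shared rows (grey) and the 6 microRNAs (red), with a solid line at 0 and a dashed line at the median ratio of 0.30. The 6 lie on the bright side of the plot, close to 0 and all below the dashed line.

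Bright rows had lower ratios, with a median of 0.21 in the brightest 25% against 0.30 over all shared rows, so each of the 6 was also set against the 100 rows nearest to it in mean log2 intensity. Of its 100 nearest rows, 74 had a higher ratio than miR-23b-3p. The count was 83 for miR-27b-3p, 76 for miR-29b-3p and 79 for miR-30a-5p. It was 60 for miR-30a-3p and 61 for miR-30b-5p. All 6 thus lay in the lower part of their neighbours, miR-27b-3p furthest down and miR-30a-3p and miR-30b-5p nearer the middle. The distance from the neighbours' median was 1.19 times their robust SD (the scaled median absolute deviation) below it for miR-27b-3p, which is -0.25 on the log2 scale. For the other 5 it was smaller, between -0.97 and -0.26 robust SDs. Neighbour sets of the brighter microRNAs share rows, so the 6 positions are not separate observations. For miR-29b-3p, the 9th brightest row in both arrays, most of the 100 neighbours were dimmer, so its match in brightness is loose. The same holds to a lesser degree for miR-23b-3p, miR-30a-5p and miR-30b-5p, each among the 47 brightest rows of both arrays.

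**Figure D3:**
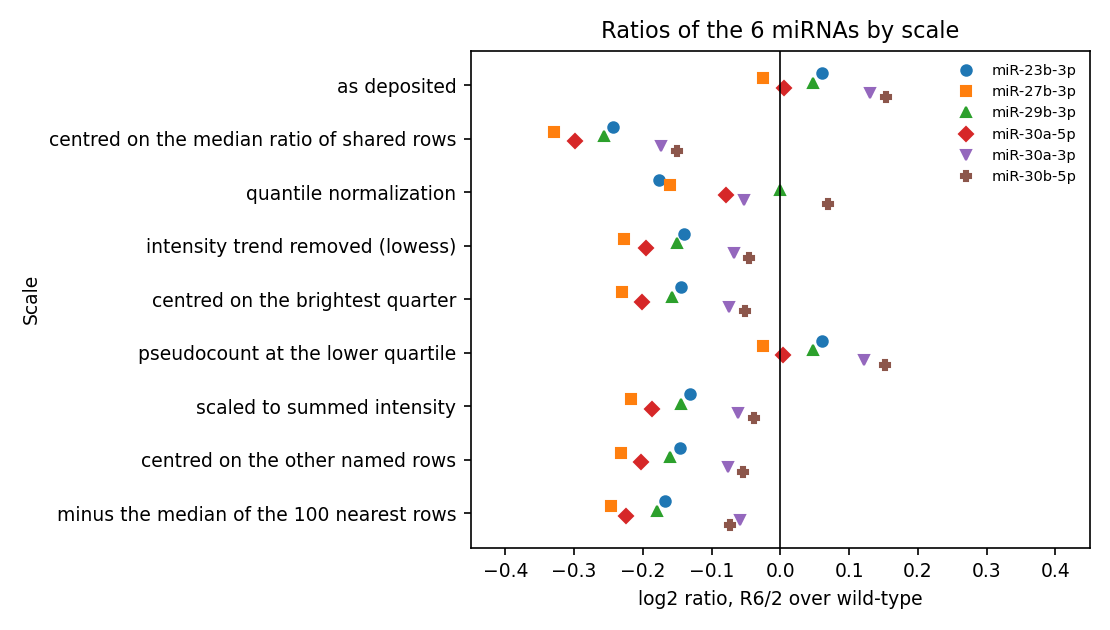
log2 ratio of R6/2 over wild-type for each of the 6 microRNAs (symbols) as deposited and under 8 other scales, 1 per line, with a vertical line at 0. The values lie between -0.33 and 0.15 throughout, 5 of 6 above 0 as deposited and all 6 below 0 after centring on the median ratio.

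The ratios of the 6 were set beside those of the other 39 of the 45 named rows, which were dimmer at the median. Median intensity in R6/2 was 3463 for the 6 and 450.6 for the other 39. It was 3637 for the let-7, miR-99 and miR-125 rows and 4682.7 for the neuron-enriched rows. As deposited, the 6 spanned 0.18 on the log2 scale between the lowest and the highest ratio, with a median of 0.054, against a median of 0.30 over all shared rows. The 7 neuron-enriched rows spanned 2.12, from -1.61 for miR-132-3p, a microRNA induced by neuronal activity, to 0.51 for miR-137-3p. Their median was -0.15, and 6 of the 7 were lower in R6/2 on either scale. The 6 rows of the let-7, miR-99 and miR-125 families spanned 0.30 with a median of 0.28. All 6 of these were higher in R6/2 as deposited, but 4 of the 6 were lower relative to the median ratio. The brightest 25% of shared rows hold every row of both lists. Of that 25%, 77.8% were higher as deposited and 70% were lower relative to the median ratio. Over all shared rows these shares were 84.3% and 50%. The immune and vessel list had 7 of its 8 rows filled in both arrays. It spanned 0.93 with a median of 0.40, and 6 of these 7 were higher as deposited, of which 5 stayed above the median ratio. The 4 muscle, epithelial and red-cell rows spanned 0.43 with a median of -0.20. Their intensities ran from 8.2 to 100.3 in R6/2 and from 8.1 to 133.7 in wild-type. The 14 named rows in none of these lists spanned 1.56, from -0.65 for miR-153-3p to 0.91 for miR-130a-3p, with a median of 0.24. Ratios in the brightest 25% of shared rows had a robust SD of 0.22.

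The median of the 6 microRNAs thus lay between those of the neuron-enriched and of the let-7, miR-99 and miR-125 rows. These lists were chosen with results of these data known and hold few rows, so their medians are descriptions. As deposited, 0 of the 6 differed by 1.5-fold or more, while 5 of the other 38 named rows filled in both arrays were higher and 3 lower. In R6/2 the 5 higher rows read from 39.2 to 520.6 and the 3 lower rows from 406.7 to 4682.7.

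**Figure D4:**
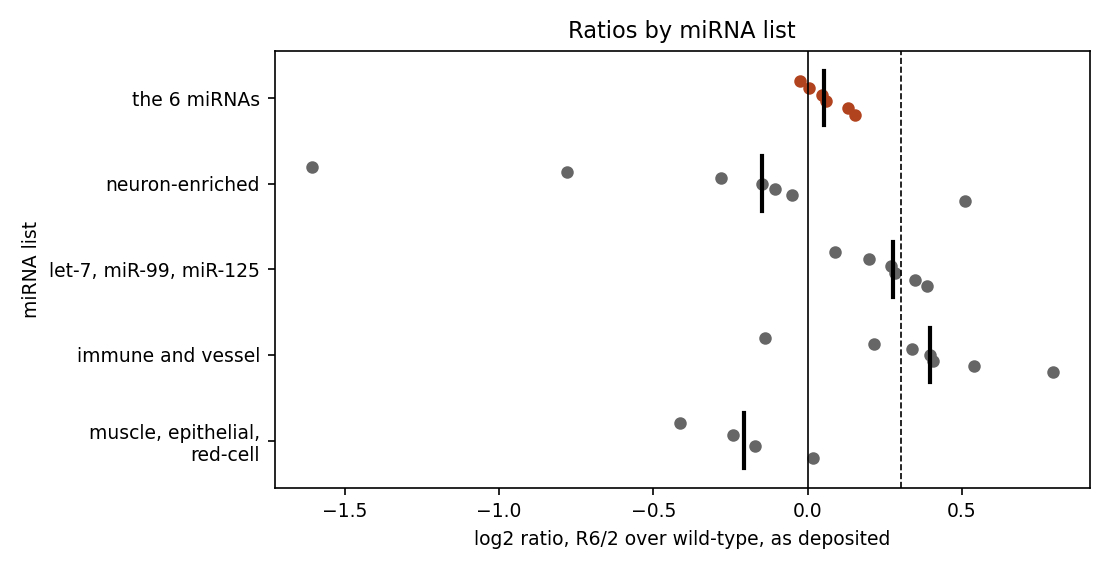
log2 ratio of R6/2 over wild-type as deposited for each row of 5 microRNA lists (points) with the list's median (vertical bar), a solid line at 0 and a dashed line at the median of all shared rows, 0.30. The 6 microRNAs lie from -0.025 to 0.15, the let-7, miR-99 and miR-125 rows from 0.087 to 0.39, and the neuron-enriched rows from -1.61 to 0.51.

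For each of the 6, the other named row with the closest log2 ratio over the 2 arrays was found among 38 candidates. For miR-23b-3p it was let-7g-5p, with a log2 ratio of 0.087, and for miR-27b-3p it was miR-9-5p, with -0.050. MiR-151-3p was closest to miR-30a-3p at 0.14, and miR-135a-5p to miR-30b-5p at 0.15. For both miR-29b-3p and miR-30a-5p it was miR-144-3p, at 0.018, a row near the lower end of the table, where a ratio is poorly determined. With 2 arrays such closeness says only that the ratios are alike.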

How the data were processed

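Striatal RNA was labelled with the single dye Hy5 and measured on 3D-Gene mouse miRNA chips, 1 array per genotype, per the labels' protocols. The authors deposited linear normalized intensity values with blank cells. The sources used here do not state how background, blanks and scale were handled. A value was present in 1650 rows of the R6/2 array and 1376 of the wild-type array, and the median intensity of each was 25.

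For the 1369 rows filled in both arrays, R6/2 was divided by wild-type and log2 taken, without a pseudocount. Ratios were given as deposited and after subtracting their median. The alternatives were quantile normalization, centring on the brightest 25% of rows, a lowess fit on intensity (span 0.4) taken off, and pseudocounts of 11.3 (R6/2) and 12.3 (wild-type). Scaling to summed intensity, to the other named rows and to the 100 nearest rows was added after the data were seen. For the shares of bright rows, the plan named a wider set by mean log2 intensity than the brightest 25% used here. The 6 microRNAs and the lists were chosen with earlier results of these data known. The rule for named rows took the 6 microRNAs, the extremes of each list and the row closest in ratio. The microRNA names follow miRBase numbering from general knowledge, since no table used here pairs them with the identifiers. The number of arrays limits the precision. The scaling steps, apart from the pseudocount and summed-intensity ones, were checked on simulated data. Those data had a constant shift between the arrays and no trend with intensity, so removal of such a trend was not checked. Python 3.11.15, numpy 2.4.6, pandas 2.3.3, scipy 1.17.1, statsmodels 0.14.6 and matplotlib 3.10.9 were used.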

Additional observations from a re-analysis of the deposited data

How the results depend on the processing

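No paired analysis was possible because each genotype has 1 array, and for the same reason no replicate could be left out. A ratio was taken as moved by another scale when its log2 value shifted by at least 0.25. The median log2 ratio of the 6 microRNAs, 0.054 as deposited, was -0.25 after centring on the median ratio of the shared rows. Under the other scales it lay between -0.17 and 0.054. It was below 0 in all but the pseudocount setting, which left it nearly in place. Of the 48 single ratios under other scales 6 moved, all by the 0.30 taken off in centring, and the lowest was -0.33. After quantile normalization 1 of the 6 microRNAs was above 0 and 4 below, and miR-29b-3p, which held the same rank in both arrays, was at 0. The counts of microRNAs at least 1.5-fold higher or lower were 0 under every one of these scales. The difference between the miR-30a arms, 0.13 as deposited, was 0.027 after quantile normalization and lay between 0.12 and 0.17 under the others. It was above 0 under each scale, and the ratio of miR-27b-3p was below 0 under each. The other 5 microRNAs were above 0 as deposited and with the pseudocount, and below 0 under the other scales, apart from miR-29b-3p and miR-30b-5p after quantile normalization.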
